A study of Drosophila melanogaster with 2 samples.

Results

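The 35 genes described here are core regulators of the Drosophila melanogaster cell cycle, taken from a list of symbols and matched to the Ensembl gene models of the dm6 assembly, where all 35 were found among 13945 protein-coding genes on the 6 chromosome arms. They comprised 11 cyclins, cyclin-dependent kinases and direct regulators of these kinases, 4 genes of the E2F and Rb switch, 13 genes of replication licensing and 7 genes of mitosis. Their peaks came from chromatin immunoprecipitation and sequencing (ChIP-seq) of the transcription factor gem in whole embryos of mixed sex, collected 0 to 24 h after egg laying. The embryos came from a transgenic line with green fluorescent protein (GFP) fused to the C-terminus of gem, and the chromatin was precipitated with an antibody against GFP. There was 1 group, with 2 biological replicates numbered 1 and 4, and no group without the tag was analysed here. A whole embryo at these ages mixes many tissues and stages, so a peak cannot be assigned to a cell type or to a phase of the cell cycle.

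The cell cycle is driven by cyclin-dependent kinases, which each need a cyclin partner, and the string phosphatase activates Cdk1. E2F factors, held back by Rb proteins, switch on the genes for DNA replication, while the origin recognition complex and the MCM helicase prepare origins and the aurora and polo kinases and the anaphase-promoting complex carry out division. In the early embryo most of these products are supplied by the mother, and zygotic transcription of a few of them, string among them, later decides when cells divide. The protein gem (gemini) is a member of the family of Grainyhead and CP2 factors, and its gene is a different one from geminin, the replication inhibitor among the licensing genes.

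A promoter peak was found at 13 of the 35 cell cycle genes (37.1%, exact Clopper-Pearson 95% interval 21.5% to 55.1%), against 24.6% of all protein-coding genes. These were Cdk1, Cdk4, CycD, stg, dap, E2f1, Dp, Mcm2, dup, aurA, aurB, fzy and fzr. A promoter peak is a summit within 500 bp of an annotated transcription start site (TSS) in the list of 11045 peaks that passed the irreproducible discovery rate (IDR) filter. The filter rests on agreement between replicates, but a listed peak can lack a matching summit in 1 replicate, as at CycD. The strongest promoter peak of each of the 13 genes had the same signal and rank in the list pooled from both replicates. The pooled list is therefore not an independent check of these peaks. The interval covers counting error only and includes the share of all protein-coding genes. It does not cover the choice of genes and classes, which was made with earlier results of these data known. The mitosis genes had 4 of 7 with a promoter peak (57.1%, 18.4% to 90.1%), the cyclins, kinases and regulators 5 of 11 (45.5%, 16.7% to 76.6%), the E2F and Rb genes 2 of 4 (6.76% to 93.2%) and the licensing genes 2 of 13 (15.4%, 1.92% to 45.4%). All 4 intervals overlap, and no difference between classes was tested.

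**Figure D1:**
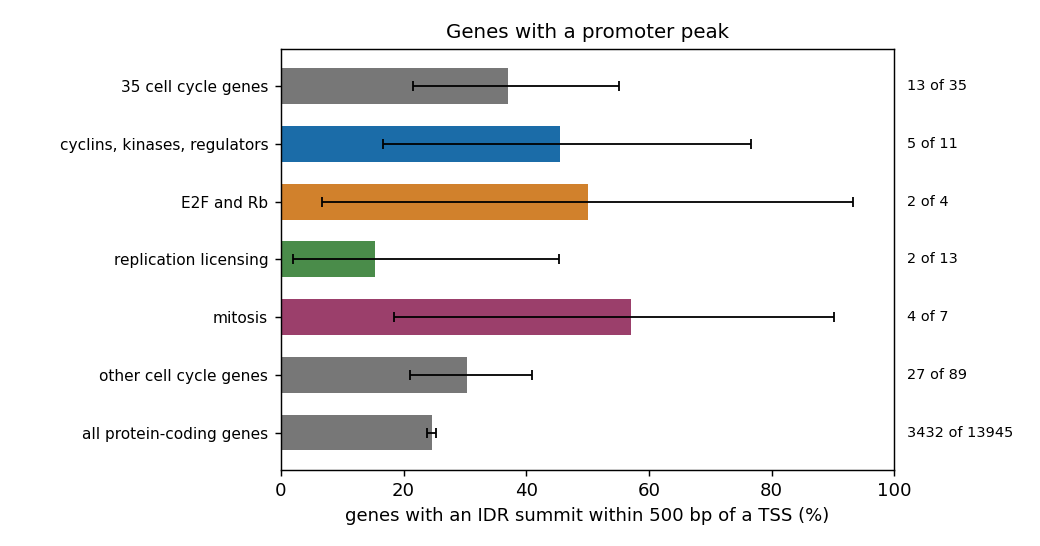
Share of genes with a promoter peak in the IDR list (horizontal axis, %), for the 35 cell cycle genes, their 4 classes, 89 other cell cycle genes and all protein-coding genes. Bars are shares, lines are exact 95% binomial intervals, and the counts stand at the right. The licensing genes had the lowest share, 2 of 13, and the mitosis genes the highest, 4 of 7.

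The share depended on how genes were matched to peaks. Among genes with a single TSS, 7 of 21 cell cycle genes (33.3%, 14.6% to 57.0%) had a promoter peak, against 18.4% of all such genes. Among genes with 2 or more TSSs the cell cycle genes had 6 of 14 (42.9%, 17.7% to 71.1%), against 41.8%. Both intervals include the share of all such genes. With summits no more than 250 bp from a TSS the count was 7 of 35 (against 18.3% of all protein-coding genes), and with each peak given only to the gene of its nearest TSS it was 8 of 35 (22.9%, against 19.0%). When summits inside the gene were added, CycE joined and the count was 14 of 35 (40.0%), against 31.3%. In the pooled list of 30000 peaks before the IDR filter 17 of 35 genes had a promoter peak (48.6%), against 35.0%, and 17 of 35 had one in both replicate lists (48.6%), against 31.2%. The 4 genes that the pooled list added were CycE, E2f2, Mcm3 and Orc1, at signals of 84.8 to 135, below the lowest signal in the IDR list, 187.

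The 13 genes had 16 promoter peaks in all. Signal is the authors' own value for each peak, in a unit not given in the sources used here. The median signal of the 16 was 795, against 605 for the 3062 IDR peaks at promoters of protein-coding genes, and 10 of the 16 (62.5%) were above 605. Counted by each gene's strongest promoter peak, the median was 912 for the 13 genes and 804 for all protein-coding genes with one. None was near the top of the list, which reached 17818: the strongest promoter peak, at Dp, ranked 697. Of the 16 peaks, 16 had a summit within 100 bp in replicate 1 and 15 in replicate 4. For 15 peaks matched in both replicates, Spearman's rho between the replicates' signals was 0.96, against 0.93 over 2857 protein-coding promoter peaks. This is a description across peaks of the same libraries, all of which had already passed the IDR filter. At these 15 peaks the IDR signal was 0.791 to 1.04 times the sum of both replicates' signals, so sizes are compared within a list and not between lists. The authors' −log10 q-value did not separate the peaks, since 15 of 16 had the list's top value, 4.29, and dup had 3.60.

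**Figure D2:**
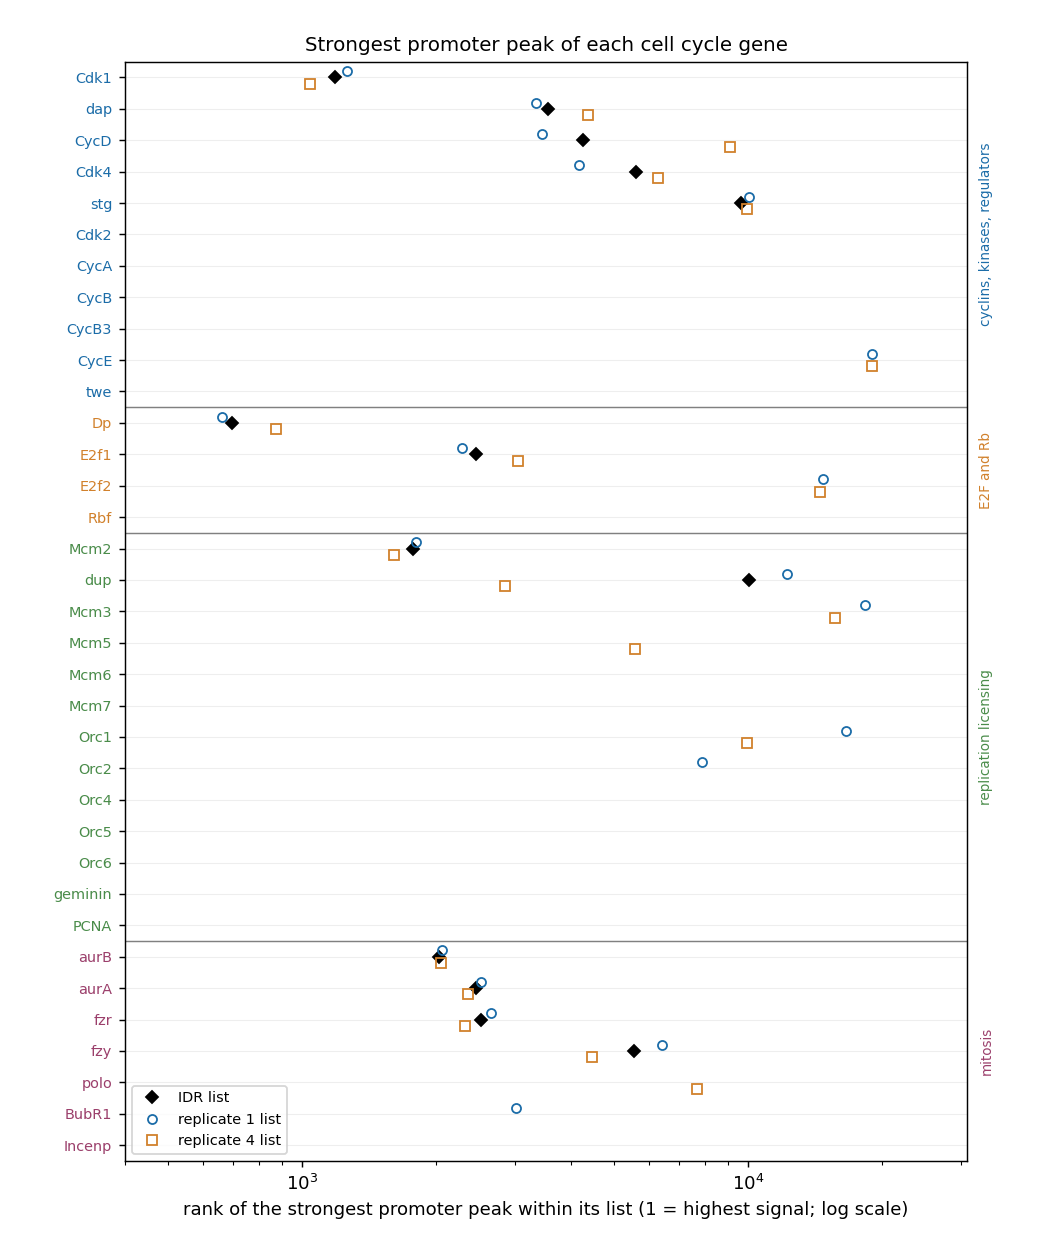
Rank of the strongest promoter peak of each of the 35 genes (horizontal axis, log scale, 1 being the highest signal) in the IDR list (filled diamonds) and in the lists of replicate 1 (open circles) and replicate 4 (open squares). Rows are genes grouped by class, and a row with no symbol has no promoter peak in any of the 3 lists. Dp, at rank 697, and Cdk1, at rank 1183, are the highest of the 35 genes in the IDR list, and 14 rows are empty. The share of all protein-coding genes with no promoter peak in the 3 lists was not computed. In the replicate 1 list 34.5% of them had a promoter peak, and in the replicate 4 list 38.6%, against 54.3% of the 35 genes in each.

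The summit windows show the DNA from 50 bases before to 50 bases after the summit for 7 of the 16 promoter peaks. These were taken by signal, the strongest of each class first, from the peaks whose sequence could be printed, and the windows are kept outside annotated UTRs (78 bases for E2f1, where a UTR begins). The windows of Cdk4, stg, dap, Dp, dup and fzr are not shown. CycE was added after its values were seen because it holds the strongest peak of the 35 genes. Each is read from the RefSeq copy of the dm6 assembly and written 5′ to 3′ on the gene's strand. Capitals mark the word CCGGTT, part of the Grainyhead-family palindrome AACCGGTT and the only searched word found in the windows shown; CCAGTT was found at a Dp summit not shown.
Cdk1, 2L:10386434-10386534, minus strand: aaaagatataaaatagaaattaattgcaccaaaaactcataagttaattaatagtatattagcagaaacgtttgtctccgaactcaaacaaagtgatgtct
CycD, X:15910103-15910203, minus strand: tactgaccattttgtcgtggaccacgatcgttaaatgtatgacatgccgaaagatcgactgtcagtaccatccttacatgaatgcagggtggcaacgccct
CycE, 2L:15747072-15747172, minus strand: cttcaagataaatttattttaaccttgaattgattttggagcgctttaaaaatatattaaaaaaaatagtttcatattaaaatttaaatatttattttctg
E2f1, 3R:21633323-21633400, minus strand: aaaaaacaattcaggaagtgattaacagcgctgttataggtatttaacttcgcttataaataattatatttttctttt
Mcm2, 3R:8264745-8264845, plus strand: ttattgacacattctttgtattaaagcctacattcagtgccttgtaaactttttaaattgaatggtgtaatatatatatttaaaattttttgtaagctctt
aurA, 3R:11962895-11962995, plus strand: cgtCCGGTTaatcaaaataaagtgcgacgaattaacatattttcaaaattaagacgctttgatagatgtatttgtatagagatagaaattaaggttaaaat
aurB, 2L:10858245-10858345, minus strand: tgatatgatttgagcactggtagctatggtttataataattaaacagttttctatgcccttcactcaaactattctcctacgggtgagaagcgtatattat
fzy, 2L:16310769-16310869, plus strand: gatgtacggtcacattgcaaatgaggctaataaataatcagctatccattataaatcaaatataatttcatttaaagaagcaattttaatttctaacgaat
The windows are rich in A and T. Over the 16 promoter peaks the G and C content of these windows ran from 16.8% to 48.5% with a median of 27.7%, against a median of 28.7% for all protein-coding promoter peaks.

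Among the cyclin-dependent kinases, Cdk1, which drives entry into mitosis, had the strongest promoter peak of its class, with a signal of 1118 in replicate 1, 497 in replicate 4 and 1611 in the IDR list, where it ranked 1183. The peak, at chr2L:10386238-10386686, had its summit 222 bp upstream of the Cdk1 TSS in a stretch of 400 bp shared with mRpS7, a mitochondrial ribosomal protein gene on the other strand, whose TSS was nearer, at 178 bp. Cdk4, the partner of CycD in growth control, had a promoter peak of 424 (416 in replicate 1 and 119 in replicate 4) 341 bp upstream of its first TSS, at chr2R:16578959-16579196. A second summit 580 bp upstream was stronger, at 1030, but lies outside the 500-bp limit, and 2 summits in Cdk4 introns had signals of 932 and 292. Cdk2, the partner of CycE, had no promoter peak in any list, and its nearest IDR summit, of 371, was 16183 bp away.

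Of the cyclins, CycD had the single promoter peak. It had a signal of 502 in replicate 1 and 569 in the IDR list, and lay at chrX:15910018-15910302, with its summit 477 bp upstream, near the limit. Replicate 4 had no summit within 100 bp of it; its one CycD promoter peak, at 80.9, lay 167 bp upstream. CycE, the cyclin of entry into S phase, held the strongest peak of all 35 genes, a signal of 2333 in replicate 1, 934 in replicate 4 and 3269 in the IDR list (rank 342). That summit lay in an intron at chr2L:15746870-15747403, 512 bp upstream of an internal TSS and therefore just outside the limit. Summits just inside the limit were those of stg at 490 bp, CycD at 477 bp, dap at 458 bp, fzr at 454 bp and the weakest of Dp at 451 bp. Just outside it, with CycE, were the stronger Cdk4 summit at 580 bp and a second fzr summit, of 269, at 654 bp. CycA and CycB3, mitotic cyclins, had no promoter peak in any list, with nearest IDR summits of 255 and 2528 at 3300 and 5946 bp.

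CycB, also a mitotic cyclin, had no promoter peak, yet one of the strongest peaks of the genome lay past its far end. That peak had a signal of 4852 in replicate 1, 1714 in replicate 4 and 6557 in the IDR list, where it ranked 68. Its summit was 3332 bp downstream of a CycB TSS, at chr2R:22802741-22803198, beyond the annotated 3′ end, and the CycB TSS was the nearest TSS of any gene. No link between the peak and CycB was measured.

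Of the regulators of the kinases, stg and dap had promoter peaks. stg, the Cdc25 phosphatase string that activates Cdk1, had a weak promoter peak, with signals of 149 in replicate 1, 73.1 in replicate 4 and 224 in the IDR list (rank 9654). The peak was at chr3R:29256088-29256491, with its summit 490 bp upstream of the stg TSS and nearer, at 195 bp, to that of CG45544. twe, the second Cdc25 phosphatase, known for its role in meiosis, had none in any list, with its nearest IDR summit, of 1794, 3880 bp away. dap, an inhibitor of CycE and Cdk2 complexes, had 2 summits in 1 interval, chr2R:9711725-9712200, at 678 (518 in replicate 1 and 168 in replicate 4) and 617 (436 and 159), 458 and 257 bp upstream, with no other gene's TSS within 500 bp.

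**Figure D3:**
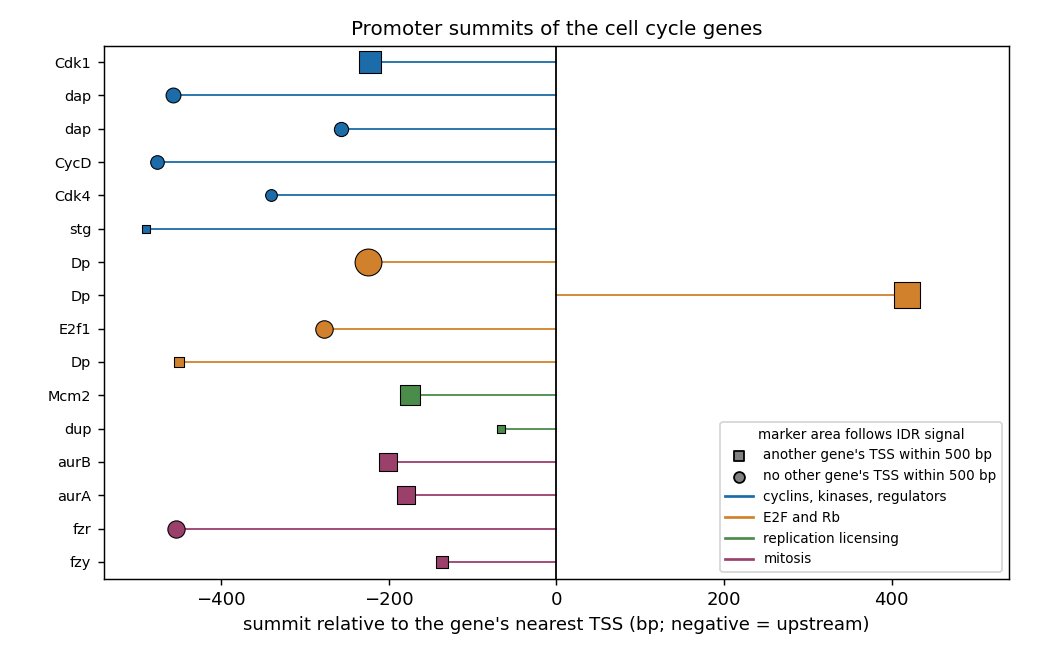
Position of the 16 promoter summits relative to the nearest TSS of their own gene (horizontal axis, bp, negative upstream). Marker area follows the IDR signal, squares have another gene's TSS within 500 bp, circles have none, and colours give the class. All summits but 1, at Dp, lie upstream.

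The E2F and Rb genes held 12 of the 29 IDR summits found at a TSS or inside the 35 genes. Of the 12, 9 were in E2f1 and 3 at Dp. E2f1 is 40568 bp long, against a median of 2883 bp for the 35 genes. Dp, the partner subunit of the E2F factors, had 3 promoter summits. The first, at chr2R:13223173-13223548, had signals of 1661 in replicate 1, 549 in replicate 4 and 2210 in the IDR list, 225 bp upstream of a TSS, and the next, at chr2R:13223815-13224190, had 1432, 549 and 1976, 419 bp downstream of it. The last, at chr2R:13224669-13225072, was weaker, at 196, 134 and 336, and lay 451 bp upstream of another Dp TSS. All 3 were in introns, and the second and the last also lay within 500 bp of the TSS of the non-coding gene lncRNA:CR43918.

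E2f1, the activating E2F factor, had 9 IDR summits within its 40568 bp, all in introns. Its promoter peak, at chr3R:21633175-21633560, had a signal of 712 in replicate 1, 231 in replicate 4 and 934 in the IDR list, 277 bp upstream of an internal TSS, 1 of its 5. The other 8 were farther from a TSS and had signals of 199 to 1387, and 3 of them, at 1387, 1325 and 1254, were stronger than the promoter peak. The weakest, at 199, had no replicate 1 summit within 100 bp. Among genes of like length such counts were not rare: of 356 protein-coding genes of 30 to 50 kb, 35 had 9 or more, the median was 2 and the highest 19. E2f2, the repressing E2F factor, had no IDR peak and 3 weak pooled promoter peaks of at most 84.8; its nearest IDR summit, of 1375, was 1970 bp upstream. Rbf, the Rb protein that holds E2f1 back, had no promoter peak in any list, with its nearest IDR summit, of 461, 21932 bp away.

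**Figure D4:**
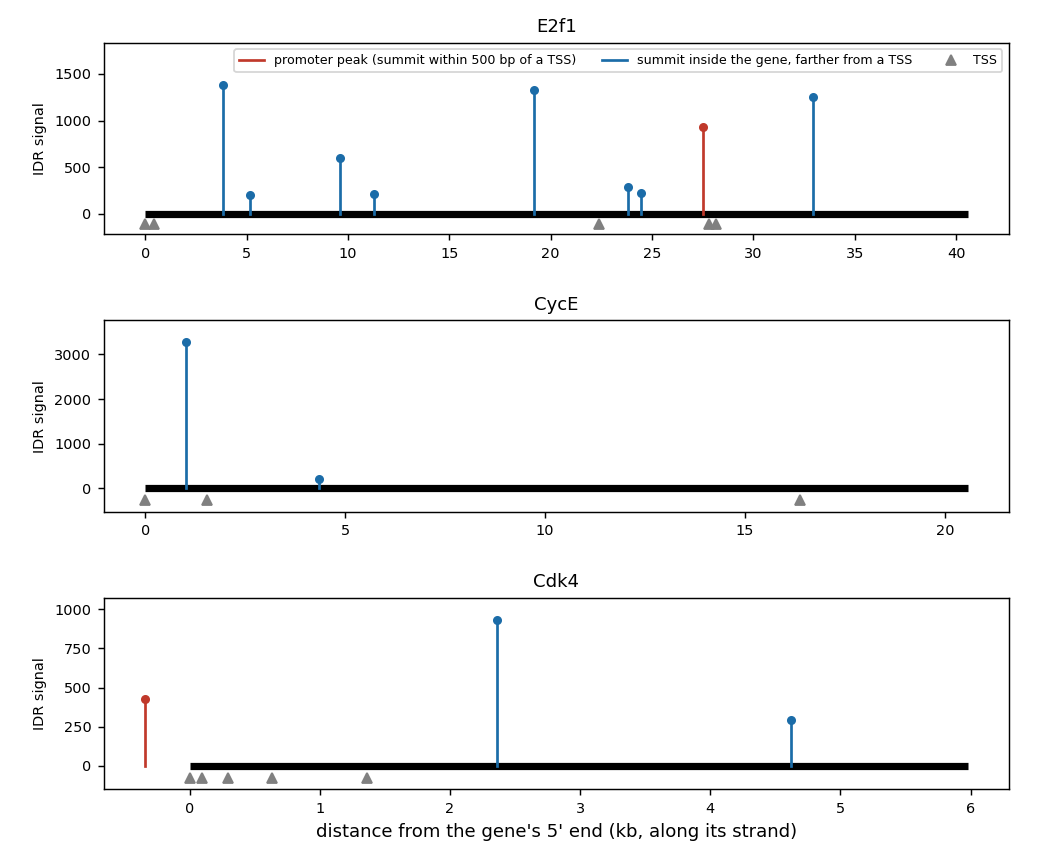
IDR summits at a TSS or inside E2f1, CycE and Cdk4. The horizontal axis is the distance from the gene's 5′ end in kb along its strand, the vertical axis is the IDR signal, black bars are the genes, grey triangles are TSSs, red marks promoter peaks and blue marks summits farther from a TSS. The E2f1 summits of 1387, 1325 and 1254 and the CycE summit of 3269 are not promoter peaks by the 500-bp limit; the Cdk4 summit of 1030, 580 bp upstream of that gene, is not drawn.

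The licensing class covers the loading of the replicative helicase at origins, and it also holds geminin and PCNA, which do not load it. Of these genes, Mcm2 and dup had promoter peaks. Mcm2, a helicase subunit, had signals of 855 in replicate 1, 373 in replicate 4 and 1207 in the IDR list (rank 1769), with its summit 175 bp upstream. The summit, in the peak at chr3R:8264481-8264997, lies between the TSSs of Mcm2 and RPA1, which are 519 bp apart on opposite strands, and is 344 bp from that of RPA1. RPA1 encodes the large subunit of the protein that coats single-stranded DNA at forks, so 1 peak adjoins a pair of replication genes, and it is counted for Mcm2 here and for RPA1 in the wider list of 89 genes. dup, the Cdt1 loading factor, had the weakest of the 16 promoter peaks, at 112 in replicate 1, 98.0 in replicate 4 and 212 in the IDR list. The peak was at chr2R:15380624-15380757, with its summit 66 bp upstream of one dup TSS, in the 5′ UTR that begins at the other, and 44 bp from the TSS of SRPK, a kinase of splicing factors.

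The other 11 licensing genes had no promoter peak in the IDR list. Most protein-coding genes had none either: 24.6% had one, and 29.0% had one with a 1000-bp limit. The share of all protein-coding genes with no IDR summit within 3 kb was not computed, so the distances that follow are a description only. The nearest IDR summits of the 11 licensing genes were 3753 to 20826 bp away, with Orc4 the closest and Mcm7 the farthest. Some of these distant summits were strong: the one nearest to Orc5, a subunit of the origin recognition complex, had a signal of 9113 and ranked 25, at 5623 bp, and those nearest to Orc1 and Orc4 had 3339 at 3832 bp and 2666 at 3753 bp. The one nearest to Mcm6 had 2251 at 4983 bp, to PCNA 1744 at 5312 bp, to Mcm5 1464 at 4266 bp, to Mcm3 776 at 5624 bp and to geminin 569 at 5513 bp. Those nearest to Orc2, Orc6 and Mcm7 had 374 at 7375 bp, 310 at 11624 bp and 245 at 20826 bp. The helicase subunit Mcm3 and the origin recognition subunit Orc1 had pooled promoter peaks of 103 and 135. Mcm6, Mcm7, Orc4, Orc5, Orc6, geminin, which blocks dup, and PCNA, the sliding clamp of the polymerases, had no promoter peak in any list, and Mcm5 and Orc2 had one in a single replicate only. Of the 13 licensing genes 10 have a single TSS, against 6 of 11 genes in the cyclin and kinase class. The part of the number of TSSs in the licensing genes' share was not tested.

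In the mitosis class the aurora kinases and the activators of the anaphase-promoting complex had promoter peaks. aurA, the kinase of spindle poles, had signals of 657 in replicate 1, 286 in replicate 4 and 934 in the IDR list, at chr3R:11962758-11963149, 179 bp upstream of its TSS and 140 bp from that of CG3281. aurB, the kinase of the chromosomal passenger complex, had 773, 317 and 1085 in the same order, at chr2L:10858050-10858549 and 201 bp upstream, with the TSS of Stam, an endosomal sorting gene, at 241 bp. In the IDR list aurA ranked 2452 and aurB 2024.

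fzy, the Cdc20 activator of the anaphase-promoting complex, had signals of 262 in replicate 1, 166 in replicate 4 and 428 in the IDR list, at chr2L:16310694-16310832, with its summit 137 bp upstream and 93 bp from the TSS of cni. fzr, the Cdh1 activator of the same complex, had 630, 288 and 912, at chrX:4679820-4680390, 454 bp upstream and inside the 3′ UTR of its neighbour Pp2C1, and a second IDR summit of 210 in an intron. The mitotic kinase polo, the spindle checkpoint protein BubR1 and Incenp, the scaffold that binds aurB, had no IDR or pooled promoter peak. Their nearest IDR summits were 7407, 43157 and 24073 bp away, with signals of 1393, 553 and 939.

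The promoter summits lay mostly upstream, some of them near a neighbour's TSS. Upstream of their own TSS were 15 of 16, against 84.1% of protein-coding promoter peaks placed by their nearest TSS. The median distance to the nearest protein-coding TSS was 241 bp, against 169 bp for all protein-coding promoter peaks, and 6 of the 16 were within 200 bp of one, against 58.9%. A TSS of another gene was within 500 bp at 9 of 16 peaks (56.2%), against 34.8% of protein-coding promoter peaks with TSSs of at least 2 genes in reach. These 2 shares are not alike. The 16 peaks were reached through genes, and a peak with 2 genes in reach can enter through either, which raises its share. At 6 of the 16 a neighbour's TSS was nearer than the cell cycle gene's, and 5 of the 13 genes (Cdk1, stg, dup, aurA and fzy) had no promoter peak once each peak was given to its nearest TSS alone. Which of the 2 genes such a peak acts on, if any, was not measured.

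A wider list of 89 other cell cycle genes had promoter peaks at 27 (30.3%, 21.0% to 41%), against 24.6% of all protein-coding genes. They were 6 of 20 cyclin, kinase and checkpoint genes, 7 of 28 replication genes and 14 of 41 mitosis genes. Several of their peaks were stronger than any promoter peak of the 35 genes. Cdc16, a subunit of the anaphase-promoting complex, had 3053, RnrS, the small subunit of ribonucleotide reductase, 2968, and tum, a GTPase-activating protein of cytokinesis, 2748. mei-41, the ATR checkpoint kinase, had 2727, the second Rb gene Rbf2 2402 and the condensin subunit SMC2 2344. SAK, the kinase of centriole duplication, had 1973 and pbl, the exchange factor that sets up the cleavage furrow, 1823. The 19 others ranged down to Gnf1, at 193, and include RPA1, with the Mcm2 peak.

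Promoter sequences were searched for short words from 250 bp upstream to 50 bp downstream of every TSS, on both strands. The DNA replication-related element (DRE, TATCGATA), the binding word of the factor Dref, was in 7 of 35 cell cycle promoters, against 10.2% of protein-coding genes. E2F words (TTTCCCGC or TTTGGCGC) were in 10 of 35 (28.6%), against 5.07%. Motif 1, a core promoter word (GGTCACAC), was in 7 of 35, against 8.71%. Of the 7 genes with a DRE (Cdk2, Cdk4, CycA, Orc2, Orc5, PCNA and BubR1), Cdk4 alone had an IDR promoter peak, against 34.6% of all protein-coding genes with a DRE, and its DRE, at another of its TSSs, was 1049 bp from the nearest IDR summit. Of the 10 with an E2F word (CycB, CycE, stg, Mcm2, Mcm3, Mcm6, Orc1, Orc4, Orc5 and dup), stg, Mcm2 and dup had one, against 31.5%. The E2F word was 477 bp from the summit at stg, 211 bp at Mcm2 and 44 bp at dup. CycE had 2 E2F words, 114 and 91 bp upstream of the TSS at chr2L:15746610, at 398 and 421 bp from its intron summit.

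**Figure D5:**
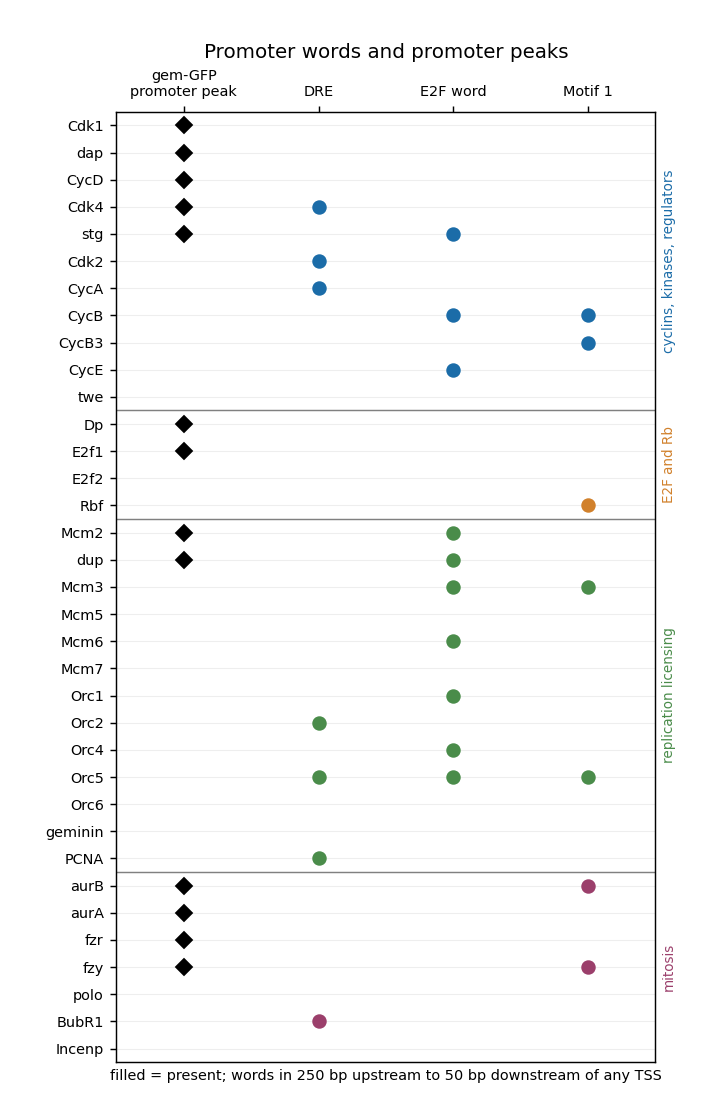
Genes (rows, grouped by class) with an IDR promoter peak (black diamonds) and with a DRE, an E2F word or Motif 1 from 250 bp upstream to 50 bp downstream of any TSS (filled circles). Of the 10 genes with an E2F word 3 have a diamond, and of the 7 with a DRE 1 has.

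Within 50 bp of the summits these words were scarce. No DRE was within 50 bp of any of the 16 summits, against 1.57% of 3062 protein-coding promoter peaks, nor anywhere in the 16 peaks, against 9.57%. The E2F words were within 50 bp of none of the 16, against 0.163% for TTTCCCGC and 0.392% for TTTGGCGC. The TTTGGCGC form was within 100 bp of 1 (dup), against 0.947%. Motif 1 was within 50 bp of none, against 0.555%. Of the words of the family to which gem belongs, CCGGTT was within 50 bp of 1 summit (aurA), against 1.76%, CCAGTT of 1 (Dp), against 3.36%, and the whole palindrome AACCGGTT, which contains CCGGTT, of none, against 0.261%. A pair of CCAG half-sites with 6 bases between them, the form known for the mammalian CP2 protein, was within 50 bp of none, against 0.131%. The words GAGAGAG and CAGGTA were within 50 bp of none of the 16, against 0.588% and 1.70%. In whole peaks some words were more frequent. Motif 1 was in 2 of 16, against 7.38%, GAGAGAG in 2, against 8.56%, and CAGGTA in 2, against 6.73%. CCGGTT was in 2, against 7.09%, CCAGTT in 3, against 14.0%, and TTTGGCGC in 1, against 2.32%. TTTCCCGC, AACCGGTT and the CCAG pair were in none, against 1.31%, 0.686% and 0.816%. With 16 peaks, shares of this size allow no more than a description, and a missing word says only that these letters are not in the window.

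The upstream DNA of Mcm2, which had a promoter peak, is shown with that of Orc5, CycA and Cdk2, which had a DRE and no promoter peak in any list. These 4 were chosen after the values were seen. Each is given 5′ to 3′ on the gene's strand and ends at the base before the TSS, from the RefSeq copy of dm6; Orc5 is cut to 95 bases where an annotated exon of a neighbour begins. Capitals mark the DRE.
Mcm2, 3R:8264720-8264969, plus strand: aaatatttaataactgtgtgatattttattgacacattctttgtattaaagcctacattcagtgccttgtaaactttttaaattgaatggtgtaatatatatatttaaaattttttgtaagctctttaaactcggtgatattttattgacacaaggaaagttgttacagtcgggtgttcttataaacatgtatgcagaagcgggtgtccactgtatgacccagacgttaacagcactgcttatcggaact
Orc5, 2L:13829742-13829836, plus strand: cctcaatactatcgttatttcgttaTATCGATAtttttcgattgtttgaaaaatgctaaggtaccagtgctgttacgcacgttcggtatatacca
CycA, 3L:11833579-11833828, minus strand: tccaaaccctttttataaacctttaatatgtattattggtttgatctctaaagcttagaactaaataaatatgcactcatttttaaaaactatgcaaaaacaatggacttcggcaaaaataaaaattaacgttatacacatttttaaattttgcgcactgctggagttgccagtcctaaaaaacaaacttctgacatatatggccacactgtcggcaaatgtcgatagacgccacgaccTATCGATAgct
Cdk2, 3R:20735373-20735622, plus strand: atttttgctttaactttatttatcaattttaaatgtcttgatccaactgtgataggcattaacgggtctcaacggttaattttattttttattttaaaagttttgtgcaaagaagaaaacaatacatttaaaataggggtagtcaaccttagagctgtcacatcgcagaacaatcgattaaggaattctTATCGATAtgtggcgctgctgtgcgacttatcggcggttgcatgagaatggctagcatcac
The DRE began 70 bp upstream of the Orc5 TSS, 11 bp upstream of that of CycA and 61 bp upstream of that of Cdk2. The Mcm2 stretch holds none of the words searched, and its E2F word began 36 bp downstream of the TSS.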

How the data were processed

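The files were 4 peak lists of ChIP-seq on 2 samples of 1 group: a list for replicate 1, a list for replicate 4, a pooled list and an IDR list of both. Per the labels, chromatin was sonicated to 200 to 800 bp and the assembly was dm6. The aligner, the peak caller and the IDR threshold are not given in the sources used here. The deposited signal value of each peak and its −log10 q-value are the authors' own; they were used as deposited, for description and ranking inside one list only. Read depth is unknown, so depth cannot be weighed and signals of the replicates are not on one scale.

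The peak summit (start plus offset) was matched to every TSS of the Ensembl release 115 gene models (BDGP6.54, without transposable elements), with coordinates counted from 1. A summit within 500 bp of a TSS was a promoter peak, and replicate summits within 100 bp were matched. An intergenic peak between 2 TSSs counted for both genes. Several summits can share an interval (160 summits in the IDR list). With 2 replicates of 1 group, no test was run: counts are set beside the share of all protein-coding genes, with exact 95% binomial intervals (scipy 1.17.1, Python 3.11.15) that cover counting error only. Whether the replicates came from separate collections beyond their biological replicate numbers is not stated. The assignment and the word search were tested on simulated data with known answers.

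The genes, their classes and the wider list of 89 genes were chosen with earlier results of these data known, and the intervals do not cover that choice. All genes with an IDR promoter peak are named with values, genes without one by class, and of the wider list the 8 with the strongest promoter peak. Alternatives tried were TSS limits of 250 and 1000 bp, the 5′-most TSS only, the stronger 5522 peaks of the IDR list, the pooled list, each replicate alone and the nearest TSS only.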

Additional observations from a re-analysis of the deposited data

How the results depend on the processing

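Of 59 counts and medians under the alternatives, 46 stayed within 1.5 times the reported count or, for the median, within the spread between the replicates' medians. That spread, a standard deviation of 243, includes the difference in scale between the replicates' signals. It is therefore a loose limit and not a measure of noise alone. With a 250-bp TSS limit the genes with a promoter peak numbered 7, with 1 in the cyclin and kinase class and 1 in the E2F and Rb class, and the median signal was 1085. With peaks given to the nearest TSS only, 8 genes had one, with 3 in the cyclin and kinase class, 1 in licensing and 2 in mitosis. With the 5′-most TSS only, 11 of 35 genes had a promoter peak (31.4%), against 22.1% of all protein-coding genes. The E2F and Rb class then had 0, since the peaks of E2f1 and Dp lie at internal TSSs. With the stronger 5522 peaks of the IDR list, 9 of 35 genes had a promoter peak (25.7%), against 17.4% of all protein-coding genes. The cyclin and kinase class then had 3 and licensing 1. With all pooled peaks 17 of 35 genes had one (48.6%), against 35.0%, and licensing had 4. The share of all protein-coding genes was 18.3% with the 250-bp limit and 19.0% with the nearest TSS only. It was 24.6% in the main setting, so a changed class count alone is not a result about that class. Without one replicate, taking as many top peaks of the other as the IDR list holds, the 35 genes had 14 to 16 with a promoter peak (45.7% without replicate 1, against 27.4% of all protein-coding genes, and 40.0% without replicate 4, against 24.5%), the cyclin and kinase class 5 in both cases, E2F and Rb 2, licensing 2 to 4 and mitosis 5. Without replicate 1, Mcm5, Orc1 and polo gained a promoter peak; without replicate 4, Orc2 and BubR1 gained one and dup lost its own. Under the settings that used the IDR list, the strongest promoter signal of each gene was the same in 47 of 48 cases where it kept a peak. The exception was Cdk4, which had 1030 with a 1000-bp limit. A kept peak brings the same signal under these settings, so this count does not measure how stable the signals are. The pooled list and the single replicates were left out of it. No paired analysis was possible because there was 1 group. Further limits are the number of replicates (2) and the unknown read depth, and no sample without the tag was analysed here.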

Other observations

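Some cell cycle genes had a promoter peak in a single replicate and no summit within 100 bp of it in the pooled list. BubR1 had one of 568 in replicate 1, at rank 3020 of 30000 and 164 bp upstream of its TSS, although the summit nearest to BubR1 in the IDR list was 43157 bp away. Orc2 had one of 205 in replicate 1, 198 bp upstream. In replicate 4, dup had one of 244, at rank 2850 and 329 bp from a TSS, Mcm5 one of 134 that also lay within 500 bp of the TSS of Art1, and polo one of 97.2 in its 5′ UTR. The cause was not tested.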
